A study of Homo sapiens with 4 samples.

Results

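The miRNAs described here are those whose name carries no arm suffix, that is, neither -5p nor -3p, because the annotation that names them lists a single mature product for the hairpin. A name was kept when at least 1 of the 4 libraries held 10 or more counts of it, and 111 of the 1474 listed miRNAs met this rule. The well-studied single-arm names miR-103b, miR-107, miR-429, miR-451a, miR-484 and all names of the miR-320 family were left out by name. The members were thus chosen by their own counts, and their levels are a description of what was kept. Small RNA had been sequenced from 4 established human colorectal cancer cell lines, with 1 library each. HCT116 and RKO are the parental lines and were not irradiated. HCT116-R and RKO-R are their acquired radioresistant derivatives, obtained by repeated x-ray exposures of 4 Gy up to a total dose of 40 Gy and then kept for at least 3 weeks without irradiation. Each derivative is a single selected line, no line had a replicate library, and every p-value below therefore compares libraries and rests on an assumed or shared spread, not on repeated cultures. The question put to these members was which of them differed between a radioresistant line and its parent, and whether they did so alike in both lines.

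A miRNA is cut from a hairpin transcript first by Drosha and then by Dicer, and a strand of the resulting duplex is loaded into an Argonaute protein. The strand pairs with messenger RNAs mainly through its seed, bases 2 to 8, and lowers their translation and stability. For long-known hairpins both arms are usually named, while names with a single product often belong to rarer miRNAs annotated from deep sequencing, and some of them share sequence with transfer RNA, small nuclear RNA, ribosomal RNA or repeats, from which short fragments can also be cloned.

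Mature sequences were taken from RefSeq (GRCh38.p14) and were found for 98 of the 111 members. No entry was found for miR-151b, miR-3148, miR-378d, miR-378e, miR-4286, miR-4326, miR-4660, miR-4748, miR-548v, miR-636, miR-641, miR-7705 and miR-9903. The following members, with the seed in capitals, are shown because they are the most abundant, were called within a pair, or differed most between the lines:
miR-4521: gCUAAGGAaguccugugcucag
miR-12136: gAAAAAGUcauggaggcc
miR-1246: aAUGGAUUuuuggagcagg
miR-449a: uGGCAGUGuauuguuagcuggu
miR-1275: gUGGGGGAgaggcuguc
miR-935: cCAGUUACcgcuuccgcuaccgc
miR-551a: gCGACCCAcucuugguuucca
miR-592: uUGUGUCAauaugcgaugaugu
miR-940: aAGGCAGGgcccccgcucccc
miR-4466: gGGUGCGGgccggcgggg
miR-346: uGUCUGCCcgcaugccugccucu
miR-184: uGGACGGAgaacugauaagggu
miR-3615: uCUCUCGGcuccucgcggcuc
miR-548k: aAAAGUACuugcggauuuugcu
miR-421: aUCAACAGacauuaauugggcgc
miR-2110: uUGGGGAAacggccgcugagug
miR-941: cACCCGGCugugugcacaugugc
miR-4454: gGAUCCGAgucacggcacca
miR-4463: gAGACUGGgguggggcc
miR-4517: aAAUAUGAugaaacucacagcugag
miR-4706: aGCGGGGAggaagugggcgcugcuu
miR-1283: uCUACAAAggaaagcgcuuucu
miR-3176: aCUGGCCUgggacuaccgg
miR-4669: uGUGUCCGggaaguggaggagg

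In GRCh38, the mature miR-4521 lies at chr17:8186948-8186969 on the plus strand, outside the GENCODE genes of that strand. The mature miR-12136 lies at chr1:632668-632685 on the minus strand, in an intron of the transcribed pseudogene AL669831.3. The mature miR-1246 lies at chr2:176601024-176601042 on the minus strand, outside genes of that strand. miR-449a lies at chr5:55170586-55170607 in an intron of CDC20B, miR-551a at chr1:3560710-3560730 in an intron of MEGF6, miR-592 at chr7:127058148-127058169 in an intron of GRM8, and miR-346 at chr10:86264747-86264769 in an intron of GRID1, each on the minus strand. miR-935 lies at chr19:53982362-53982384 on the plus strand, within the annotated coding sequence of CACNG8, and miR-940 at chr16:2271806-2271826 on the plus strand, in an exon of the lincRNA AC009065.4. Of the 98 members with a sequence, 58 lay in introns, 26 outside genes of their strand, 7 in untranslated regions, 5 in other exons and 2 in coding sequence.

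The label of the group was checked against the same table. All 98 members with an entry had 1 mature product there. Where a hairpin sequence was found, the product lay on its 5' side for 41 members and on its 3' side for 33, so a single-product name does not stand for a fixed arm. For the remaining members no hairpin sequence was found and the side is not known. Mature lengths ran from 17 to 25 bases with a median of 22. Of these members, 13 (13.3%) had 19 bases or fewer, against 5 of 535 (0.935%) of the other miRNAs with 10 or more counts in a library. The 3 members of 17 bases, miR-1275, miR-4463 and miR-4516, are shorter than the 18 bases at which the libraries were size-selected, and no other miRNA in that set was. The median GC content was 54.8% in the members and 50.0% in the others. A first base of U, which Argonaute proteins are known to favour, was present in 42.9% of the members and in 44.5% of the others. These are descriptions of the names, and no test was run on them.

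The 4 libraries held between 6818497 counts in HCT116-R and 7140460 counts in RKO, so that a floor of 3 counts stood at 0.420 to 0.440 CPM, the count scaled by the library total to a common total of 1000000. Intervals and floors given here cover counting error only. The line labels were set beside marker miRNAs of cell types. The summed epithelial markers (miR-200c-3p, miR-141-3p, miR-192-5p, miR-194-5p and miR-215-5p) stood at 44026 CPM in HCT116 and 43496 CPM in HCT116-R, but at 389 CPM in RKO and 655 CPM in RKO-R. miR-200c-3p stood at 42717, 42008, 90.9 and 206 CPM in HCT116, HCT116-R, RKO and RKO-R and made up most of the sum in the HCT116 libraries. In the same order miR-141-3p stood at 972, 1220, 2.38 and 5.93 CPM. miR-192-5p, at 226, 202, 220 and 323 CPM, and miR-194-5p, at 112, 65.1, 75.2 and 119 CPM, did not share this difference. Both were highest in RKO-R. Among the epithelial markers miR-215-5p was at 0 in 3 libraries. The 5 blood cell markers summed to between 5.64 and 26.7 CPM, and the fibroblast and smooth muscle markers miR-143-3p and miR-145-5p to 299, 154, 7.14 and 76.4 CPM in HCT116, HCT116-R, RKO and RKO-R. The last markers thus moved within the pairs, lower in HCT116-R and higher in RKO-R than in the parent, and their part in the changes below was not tested.

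The members were a small part of every library. They took 21380 counts in HCT116, which is 0.313% of the library (95% Wilson interval 0.309% to 0.318%). In HCT116-R they took 23194 counts, or 0.340% (0.336% to 0.345%). In RKO they took 32301 counts, or 0.452% (0.447% to 0.457%), the highest share of the 4. In RKO-R they took 19115 counts, or 0.277% (0.273% to 0.280%), the lowest. The 4 intervals did not overlap, although with 1 library per line the difference was not tested against replicate error. miR-4521 carried much of the difference. Without miR-4521 the shares were 0.303%, 0.289%, 0.290% and 0.253% in the same order.

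**Figure D1:**
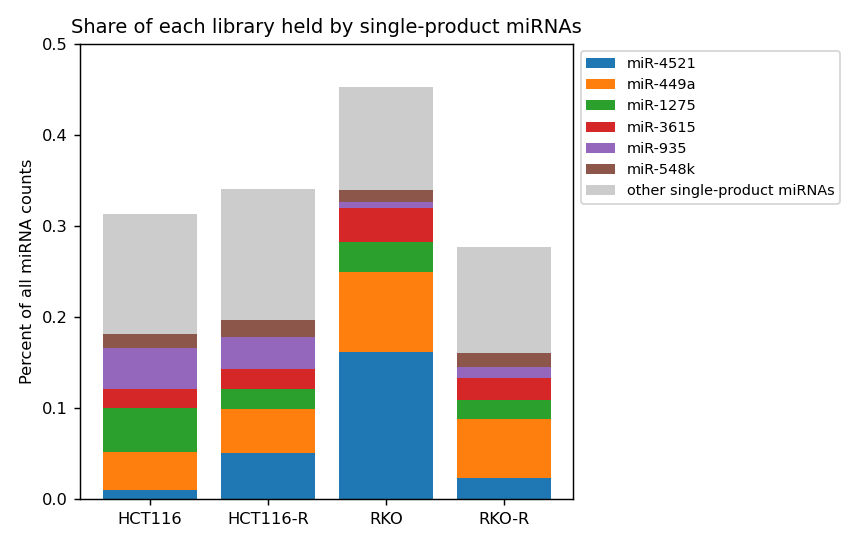
Percent of all miRNA counts (vertical axis) held by single-product miRNAs in each of the 4 libraries, stacked by the 6 most abundant members with the others in grey. The bars reach 0.313%, 0.340%, 0.452% and 0.277%, and the miR-4521 segment is widest in RKO, where it makes up 35.8% of the member counts.

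The counts were unevenly divided among the members. The 2 most abundant held 35.6% of all member counts and the 12 most abundant held 82.6%. Only 12 members exceeded 100 CPM in any library, and 74 stayed at or below 10 CPM in every library. By counts, 10 members reached 1000 or more in a library, 20 peaked at 100 or more but under 1000, and 81 peaked at 10 or more but under 100. The most abundant member was miR-1275 in HCT116 (15.3% of member counts), miR-4521 in HCT116-R (15.0%) and in RKO (35.8%), and miR-449a in RKO-R (23.4%).

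Most members did not pass the 10-count rule in every library. The rule was met in all 4 libraries by 46 members, in 3 by 15, in 2 by 25 and in only 1 by 25. Of the last, 4 passed through HCT116, 10 through HCT116-R, 8 through RKO and 3 through RKO-R. A member kept through a single library had to be low in the other 3, so its difference partly follows from the choice. At the threshold, 5 members peaked at 10 counts, among them miR-3159 with 6 and 10 counts in the HCT116 libraries and 0 in both RKO libraries. Another 5 single-arm names peaked at 9 counts and were left out, among them miR-3165 with 4 and 9 counts in the HCT116 libraries and 0 in both RKO libraries. In total, 278 single-arm names outside the exclusions had at least 1 count. Counting all of these in place of the members moved the shares only to 0.317%, 0.344%, 0.455% and 0.279%.

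miR-4521 had the highest mean level of the members and also varied most among the abundant ones. Its counts were 676, 3474, 11563 and 1623 in the order HCT116, HCT116-R, RKO and RKO-R, an order kept wherever 4 values follow each other, and its levels 99.1, 509, 1619 and 235 CPM. miR-449a, a relative of the p53-induced miR-34a, ranked next. Its levels were 416, 480, 878 and 647 CPM. Its highest and lowest libraries were 2.11-fold apart. miR-1275 had 3277, 1514, 2350 and 1451 counts, a spread of 2.29-fold in CPM.

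Below these, miR-3615, which lies in an untranslated region of SLC9A3R1, had 1442, 1488, 2659 and 1651 counts. miR-935 had 3100, 2424, 492 and 831 counts and was thus high in both HCT116 libraries. miR-548k, of the primate-specific miR-548 family, had 1046, 1273, 923 and 1036 counts. miR-421, from an intron of the lincRNA FTX, had 861, 985, 934 and 1265 counts. The last pair were the steadiest of the abundant members, at 1.44-fold and 1.45-fold between the highest and lowest CPM.

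miR-2110 had 1303, 1148, 779 and 632 counts, and miR-941, a human-specific miRNA that RefSeq places at 5 hairpins in an intron of DNAJC5 on chromosome 20, had 1300, 985, 535 and 553. miR-12136 had 719, 1064, 81 and 1200 counts, so that 3 libraries stood at 105 to 174 CPM and RKO alone at 11.3 CPM. miR-151b had 828, 453, 480 and 611 counts, and miR-4466 had 289, 282, 625 and 207. Among these 12 most abundant members, 4 varied by less than 2-fold over the libraries.

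**Figure D2:**
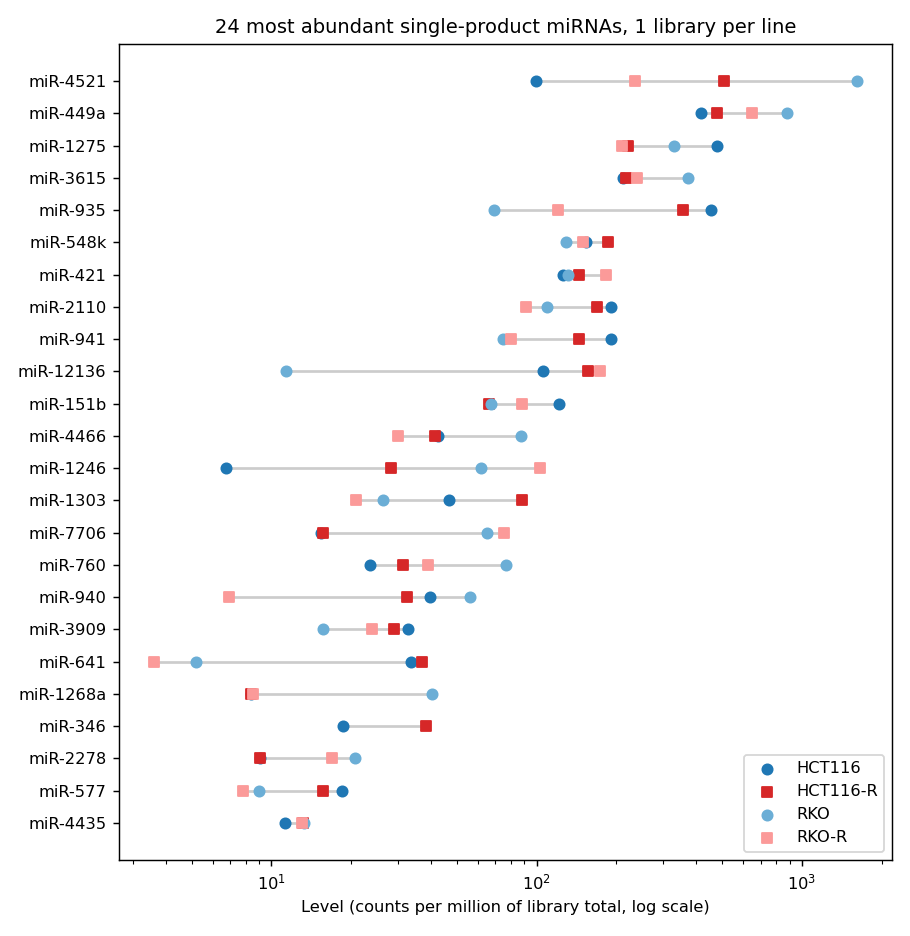
Levels of the 24 most abundant single-product miRNAs in CPM on a log axis, with a point for each library and a grey line from the lowest to the highest listed value. miR-548k and miR-421 have short lines, while miR-4521, miR-12136 and miR-1246 each span more than an order of magnitude. miR-346 has no RKO or RKO-R point because it had 0 counts there.

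Each radioresistant library was then tested against its parental library with edgeR's exact test at an assumed biological coefficient of variation (BCV) of 0.2, and called at a Benjamini-Hochberg adjusted p under 0.05 over all miRNAs listed in the pair. Between HCT116-R and HCT116, 109 members could be tested and 11 were upregulated in HCT116-R. None was downregulated at the adjusted threshold in edgeR's exact test, while at an unadjusted p under 0.05 there were 19 higher and 4 lower members. Over all 1322 miRNAs tested, 2.34% were called higher and 1.66% lower. Over the 706 of these with 10 or more counts in a library, which is the fairer background because the members were chosen that way, 4.39% were called higher and 3.12% lower. The median log2 fold change was 0.17 over the 109 members and 0.07 over all miRNAs tested. With libraries under 3 counts set to that floor, the median log2 CPM ratio was 0.20 over 105 members and 0.03 over all 690 miRNAs with 10 or more counts that could be given one.

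The largest count among the 11 upregulated members was that of miR-4521, with 676 counts in the parental and 3474 in the radioresistant library. Its CPM was 5.14-fold higher in HCT116-R (95% counting interval 4.73 to 5.59), and the log2 fold change was 2.34 (SE 0.41), with an adjusted p of 4.29e-06 by edgeR's exact test. miR-551a rose from 35 to 268 counts, a 7.66-fold higher CPM (5.37 to 11.2). On the log2 scale this was 2.91 (SE 0.48), at an adjusted p of 2.68e-07 by edgeR's exact test. The RKO and RKO-R libraries held 21 and 5 counts of it. The HCT116-R library therefore stood above the other 3.

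miR-592 rose from 9 to 64 counts, which is 2.79 on the log2 scale (SE 0.66, adjusted p = 0.000302 by edgeR's exact test). With 43 and 48 counts in the RKO libraries, the low library for miR-592 was HCT116. miR-1246 rose from 46 to 193 counts, a 4.2-fold higher CPM (3.03 to 5.92), or 2.05 on the log2 scale (SE 0.47, adjusted p = 0.000731 by edgeR's exact test). miR-7705 rose from 29 to 100 counts, or by 1.76 on the log2 scale (SE 0.51, adjusted p = 0.0187 by edgeR's exact test).

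Both miR-4286 and miR-4454 reached the threshold from few counts. miR-4286 had 7 counts and then 37, a ratio of 5.29 (2.33 to 14.1), and miR-4454 had 8 and 40, a ratio of 5.0 (2.31 to 12.4). Each had an adjusted p of 0.0188 by edgeR's exact test. The remaining 4 were at or under 3 counts in HCT116. miR-4463 had 0 and 29 counts, at least 9.67-fold higher against the floor of 3 counts (adjusted p = 3.62e-05 by edgeR's exact test). miR-3148 had 0 and 19 counts, at least 6.34-fold higher (adjusted p = 0.00166 by edgeR's exact test), and was at 0 in both RKO libraries.

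miR-4517, from an untranslated region of NFATC2IP, had 2 and 24 counts, a ratio of 12 with a counting interval of 2.98 to 105 (adjusted p = 0.00802 by edgeR's exact test). miR-4706, from an intron of FNTB, had 1 and 18 counts, a ratio of 18.0 with an interval of 2.84 to 750 (adjusted p = 0.0173 by edgeR's exact test). The intervals of these low members span more than an order of magnitude, so only their direction is resolved at this depth. Of the 70 members with 10 or more counts in both HCT116 libraries, 11 were at least 2-fold higher and 5 at least 2-fold lower in HCT116-R, around a median log2 CPM ratio of 0.00. At a BCV of 0.4 only miR-4463 of the 11 stayed called. That member, like miR-3148 and miR-4706, had been kept only through HCT116-R, the library where it is high, so its difference follows in part from the choice, and none of the other 8 stayed called. The BCV estimated over the 4 libraries was 0.482. The 4 members with an unadjusted p under 0.05 in the lower direction included miR-1275, at -1.13 on the log2 scale (SE 0.41, adjusted p = 0.13 by edgeR's exact test), and miR-1260b, at -1.75 (SE 0.56, adjusted p = 0.0575 by the same test).

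Between RKO-R and RKO, 101 members could be tested. Here 3 were upregulated and 7 downregulated in RKO-R by edgeR's exact test, and at an unadjusted p under 0.05 there were 8 higher and 12 lower. Over all 1155 miRNAs tested, 2.51% were called higher and 3.03% lower. Over the 650 with 10 or more counts in a library, 4.46% were called higher and 5.38% lower. The median log2 fold change was -0.02 over the members and 0.02 over all miRNAs tested, and with the floor -0.26 over 95 members and -0.25 over 598 miRNAs on the CPM scale. With scaling by library totals alone, the median of all miRNAs with 10 or more counts moved from 0.04 to -0.20, and the calls among members became 2 higher and 10 lower. Throughout, CPM ratios use library totals alone, while edgeR's log2 fold changes also use TMM scaling. The TMM factors were 1.09 in RKO and 0.921 in RKO-R, so the log2 fold changes here differ from the log2 of the CPM ratios.

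miR-12136 had by far the most counts of the upregulated members. The parental library held 81 counts (11.3 CPM, 95% interval 9.13 to 14.1) and the radioresistant library 1200 (174 CPM, 164 to 184). The CPM was 15.3-fold higher in RKO-R (12.2 to 19.4), which edgeR's exact test gave as 4.17 on the log2 scale (SE 0.44, adjusted p = 2.25e-15). In the HCT116 pair it was 1.48-fold higher in HCT116-R (1.35 to 1.63), with a log2 fold change of 0.54 that did not pass edgeR's exact test (SE 0.41, adjusted p = 0.854). miR-12136 was the only one of the 10 called members that stayed called at a BCV of 0.4. RKO was thus the library that stood apart, and HCT116-R and RKO-R differed by 1.11-fold.

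The other upregulated members had few counts and had been kept only through RKO-R. miR-1260a had 1 and 15 counts, a ratio of 15.5 with a counting interval of 2.38 to 652 (adjusted p = 0.033 by edgeR's exact test), against 1 and 0 in the HCT116 pair. miR-1283, from the primate-specific cluster on chromosome 19 that is active mainly in placenta, had 1 and 14 counts, a ratio of 14.5 with an interval of 2.20 to 611 (adjusted p = 0.0446 by edgeR's exact test). In the HCT116 pair it had 0 and 3 counts. The call of miR-1283 was lost with library totals in place of TMM (adjusted p = 0.0501).

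Among the downregulated members, miR-940 went from 402 to 48 counts. Its CPM was 8.11-fold lower in RKO-R (6.0 to 11.2), or -2.78 on the log2 scale (SE 0.46, adjusted p = 6.35e-07 by edgeR's exact test). With 270 and 221 counts in the HCT116 pair, RKO-R was the low library for miR-940. miR-4521 fell from 11563 to 1623 counts, 6.90-fold lower in CPM (6.55 to 7.27). With TMM its log2 fold change was -2.55 (SE 0.41, adjusted p = 4.15e-07 by edgeR's exact test). miR-4286 fell from 144 to 29 counts, 4.81-fold lower in CPM (3.21 to 7.43). With TMM its log2 fold change was -2.02 (SE 0.50, adjusted p = 0.00324 by edgeR's exact test).

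miR-1268a fell from 287 to 59 counts, 4.71-fold lower in CPM (3.55 to 6.34). With TMM its log2 fold change was -2.0 (SE 0.46, adjusted p = 0.00109 by edgeR's exact test). Its level was equal in the HCT116 pair, with 57 counts in each library, and RKO alone was high. miR-4669, from an intron of RXRA, fell from 59 to 13 counts (log2 fold change -1.89, SE 0.60, adjusted p = 0.0398 by edgeR's exact test). miR-3176, from an intron of CAPN15, fell from 70 to 16 counts (log2 fold change -1.84, SE 0.57, adjusted p = 0.0328 by edgeR's exact test). The smallest change among the calls was that of miR-4466, from 625 to 207 counts, or -1.31 on the log2 scale (SE 0.42, adjusted p = 0.0465 by edgeR's exact test).

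Of the 7 downregulated members in the RKO pair, 6 had a sequence, with GC contents from 54.5% for miR-4521 to 94.4% for miR-4466 and a median of 74.7%. Across the 65 members with a sequence and 20 or more counts summed over the pair, Spearman's rho between GC content and log2 CPM ratio was -0.30. The median log2 CPM ratio was -0.65 for the 20 members of 60% GC or more and -0.02 for the 19 under 45%. In the HCT116 pair rho was -0.02 over 75 members, and the same medians were 0.04 and 0.00. These points share their libraries and are no replicates, and whether base composition played a part in the calls was not tested.

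**Figure D3:**
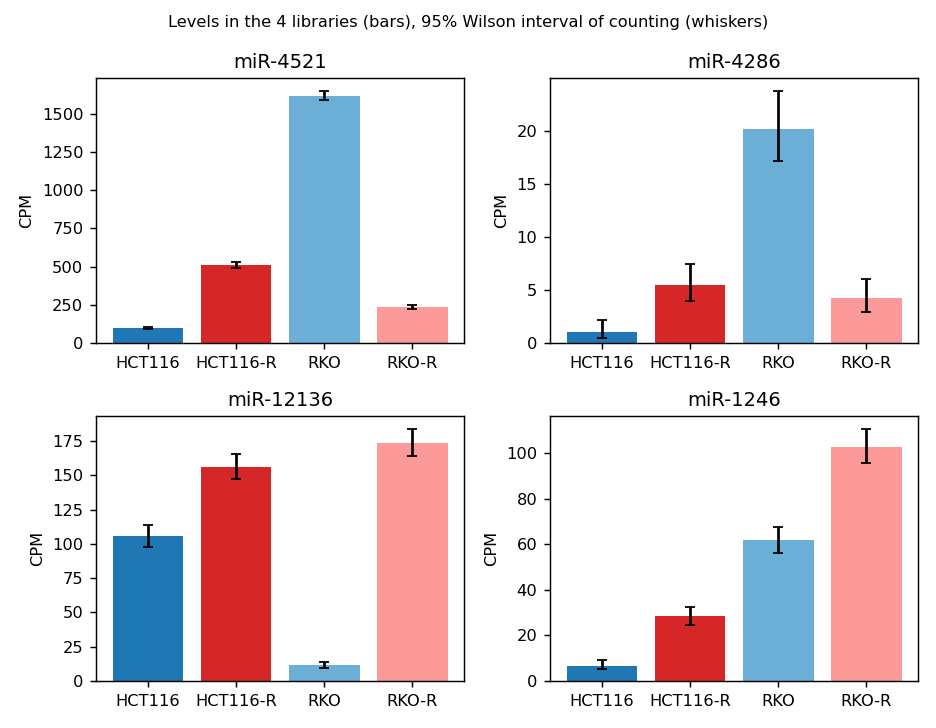
Levels of miR-4521, miR-4286, miR-12136 and miR-1246 in CPM (bars, axes from 0) in the 4 libraries, with 95% Wilson intervals of counting as whiskers. miR-4521 and miR-4286 are higher in HCT116-R than in HCT116 and lower in RKO-R than in RKO, miR-12136 is low only in RKO, and miR-1246 is higher in both radioresistant libraries than in their parents.

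Of the 111 members, 19 were called in at least 1 pair and 2 in both. Of all miRNAs with 10 or more counts, 14.2% were called in at least 1 pair, and of those listed in both pairs 2.49% were called in both and 0.778%, which is 5 miRNAs, in both in the same direction. The 2, miR-4521 and miR-4286, were called in opposite directions, and no member was among these 5. Among the 99 members with a value in both pairs, 44 changed with the same sign, 24 of them higher and 20 lower in both radioresistant libraries. The share with the same sign was not determined for the other miRNAs, and for members near 0 counts the sign is poorly resolved. The fit of all 4 libraries with cell line and radioresistance as factors (edgeR's quasi-likelihood test, 1 residual degree of freedom) gave the spread from how differently the lines changed. In it, 0 of 83 members tested were called for radioresistance, with 2 higher and 0 lower at an unadjusted p under 0.05. DESeq2 also called 0. Over all 590 miRNAs tested, 0.339% were called higher and 0.339% lower. The 2 at the unadjusted threshold were miR-12136 (log2 fold change 2.36, unadjusted p = 0.0376 over 4 libraries in edgeR's fit) and miR-1246 (1.51, unadjusted p = 0.0393), each at an adjusted p of 0.998.

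Among the 13 called members with more than 3 counts in every library, 4 had higher levels in both derivatives, namely miR-1246, miR-12136, miR-592 and miR-7705. miR-1246 had 46, 193, 441 and 711 counts. The CPM was 4.2-fold higher in HCT116-R, and 1.67-fold higher in RKO-R (1.48 to 1.88). With TMM the log2 fold change in the RKO pair was 0.97 (SE 0.42), at an adjusted p of 0.219 by edgeR's exact test. The difference between the log2 fold changes of the pairs was 1.11 with an adjusted p of 0.425 by edgeR's likelihood ratio test, so the pairs were not shown to differ for miR-1246.

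The difference between the pairs was tested for every member, as the log2 fold change in the HCT116 pair minus that in the RKO pair (edgeR's likelihood ratio test at a BCV of 0.2, adjusted over all 1474 miRNAs). It was called above 0 for 8 members and below 0 for 2. Over all 1474 miRNAs, 2.58% were called above 0 and 2.17% below 0. Only 713 of these had 10 or more counts in a library, as every member does. These shares are therefore not a like background for the members, and no excess is read from them. miR-4521 had the smallest adjusted p (2.67e-13 by that edgeR test), with a difference of 4.92. miR-551a differed by 4.71 (adjusted p = 9.89e-06 by the edgeR test) and miR-4286 by 4.42 (adjusted p = 9.15e-06 by the edgeR test). All 3 rose in HCT116-R and had lower counts in RKO-R than in RKO.

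miR-12136 differed the other way, by -3.59 (adjusted p = 6.75e-07 by the edgeR test). miR-3662 had 14, 48, 58 and 15 counts and passed the test in no single pair, but its changes differed by 3.44 (adjusted p = 0.00135 by the edgeR test). miR-1260b, with 60, 18, 28 and 37 counts, was likewise called only for the difference, at -2.40 (adjusted p = 0.0431 by the edgeR test). Its call was lost with library totals in place of TMM. The other members called were miR-4517, miR-4706, miR-3176 and miR-940. Of these, miR-4706 had been kept only through HCT116-R, where it is high, so its difference follows in part from the choice. At a BCV of 0.4 only miR-4521 stayed called.

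**Figure D4:**
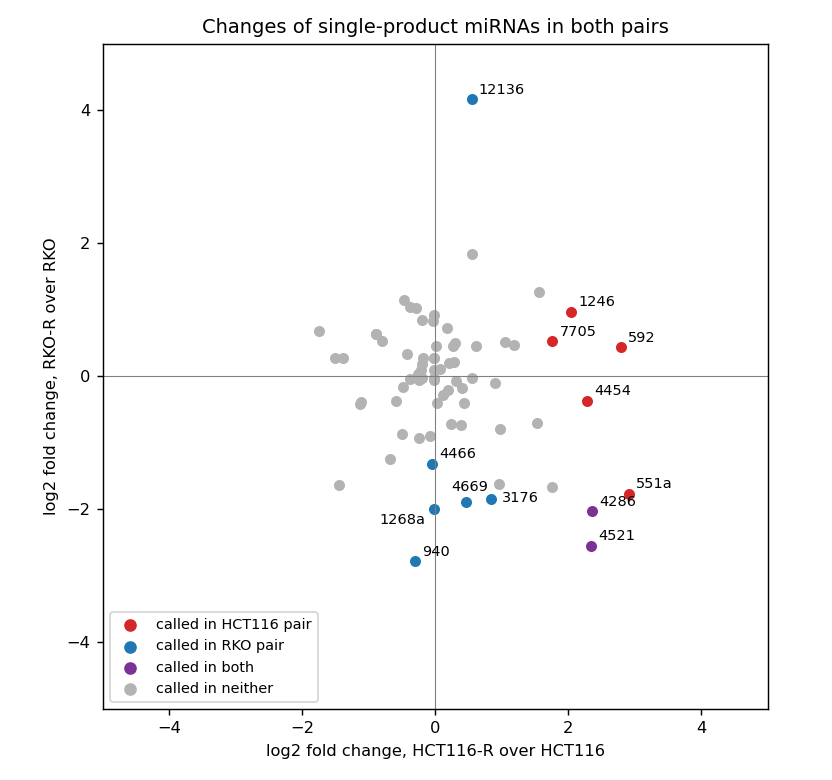
Log2 fold change of HCT116-R over HCT116 (horizontal) against RKO-R over RKO (vertical) for the 73 single-product miRNAs with more than 3 counts in every library, with the 13 called in a pair in colour and labelled by number. miR-4521 and miR-4286 lie at the lower right, higher in HCT116-R and lower in RKO-R, miR-12136 lies alone at the top, and miR-1246 is the labelled point at 2.05 and 0.97.

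The cell lines themselves differed more than the pairs. With the same quasi-likelihood fit, 16 of the 83 members tested were higher and 5 lower in the HCT116 libraries than in the RKO libraries. Over all 590 miRNAs tested, 23.2% were called higher and 6.27% lower, so that the members' share of calls was not above this background. Each side holds a parental library and its derivative, which are not replicates, and the epithelial markers differed between the lines by the levels given above, so that these members differed along with them. The part of cell state in these differences was not tested.

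miR-346, from an intron of the glutamate receptor gene GRID1, had the most counts of the members at 0 in both RKO libraries. It had 127 and 260 counts in the HCT116 libraries but 0 in both RKO libraries, which is at least 44.3-fold between the parental lines and at least 87.9-fold between the derivatives (adjusted p = 0.000827 by edgeR's quasi-likelihood test). miR-184, best known from cornea and lens, had 178 and 87 counts in the HCT116 libraries, 0 in RKO and 4 in RKO-R, at least 62.1-fold between the parents and 22.1-fold between the derivatives (adjusted p = 0.00546 by edgeR's quasi-likelihood test, but 0.0543 with library totals). miR-1295a had 48 and 30 counts against 0 and 1, miR-543 had 26 and 41 against 0 and 2, and miR-1293 had 37 and 78 against 2 and 2. miR-3943, miR-548v and miR-4660 were at 0 in both RKO libraries and had at most 27 counts in the HCT116 libraries. Like miR-346 and miR-184, all of these members met the rule for membership only through the HCT116 libraries, where they are high. Their differences therefore follow in part from the choice. The calls of miR-1295a, miR-543 and miR-3943 were lost with DESeq2's Wald test.

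At higher levels, miR-641 had 229, 252, 37 and 25 counts, a log2 difference of 3.03 (adjusted p = 0.00696 by edgeR's quasi-likelihood test). miR-935 differed by 2.16 (adjusted p = 0.024 by the same edgeR test, but 0.0514 with DESeq2's size factors), at 454 and 356 CPM in the HCT116 libraries and 68.9 and 120 CPM in the RKO libraries. The rest of the 16 were miR-9903, miR-1273c, miR-4440, miR-548n, miR-1255a and miR-1294, with log2 differences from 2.10 to 3.22. Each of these 6 lost its call with library totals and with DESeq2's Wald test. miR-9903, with 24, 21, 1 and 4 counts, met the rule for membership only through the HCT116 libraries, where it is high. Its difference follows in part from the choice.

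Of the 5 members higher in the RKO libraries, miR-3661 had 125 and 101 counts there against 8 and 12 (log2 difference -3.44, adjusted p = 0.00601 by edgeR's quasi-likelihood test). miR-7706, from an untranslated region of AKAP13, had 466 and 523 counts against 105 and 107 (-2.16, adjusted p = 0.0271 by edgeR's quasi-likelihood test). miR-1246 differed by -2.50 (adjusted p = 0.0184 by the same edgeR test, but 0.0548 with library totals). miR-1843 differed by -2.02 (adjusted p = 0.0453 by the same edgeR test, but 0.0932 with library totals and 0.125 with DESeq2's Wald test). miR-4467 had 15 and 12 counts against 2 and 1, and met the 10-count rule only through the RKO libraries. In all, 10 members were at 0 in both RKO libraries (miR-2113, miR-3148, miR-3159, miR-346, miR-3659, miR-3943, miR-4660, miR-548v, miR-618 and miR-9986) and 2 at 0 in both HCT116 libraries (miR-1305 and miR-548s). Such members can have met the 10-count rule only through the other line. The share of all miRNAs at 0 in both libraries of a line was not determined, so whether these counts are particular to the members is not known.

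For the 27 members with 100 or more counts in a parental library, the difference between the parental lines was set beside that between the derivatives. In 21 of them the sign was the same. A difference of at least 2-fold was found in 19 between the parents and in 12 between the derivatives, but the choice by parental counts favours large parental gaps and leaves out members such as miR-551a, with 35, 268, 21 and 5 counts. Over all members that could be given a ratio against the floor, 70 of 106 were at least 2-fold apart between the parents and 61 of 111 between the derivatives. The gap of miR-4286 was 19.7-fold between the parents and 1.29-fold between the derivatives, and that of miR-4521 went from 16.3-fold, higher in RKO, to 2.17-fold, higher in HCT116-R. The gap of miR-12136 went from 9.29-fold to 1.11-fold and that of miR-1268a from 4.81-fold to 1.02-fold. miR-940 and miR-1303 went the other way, from 1.42-fold to 4.67-fold and from 1.77-fold to 4.22-fold. The parental and derived ratios share no library, but a parental library that stands apart enters both this gap and the change within its pair.

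**Figure D5:**
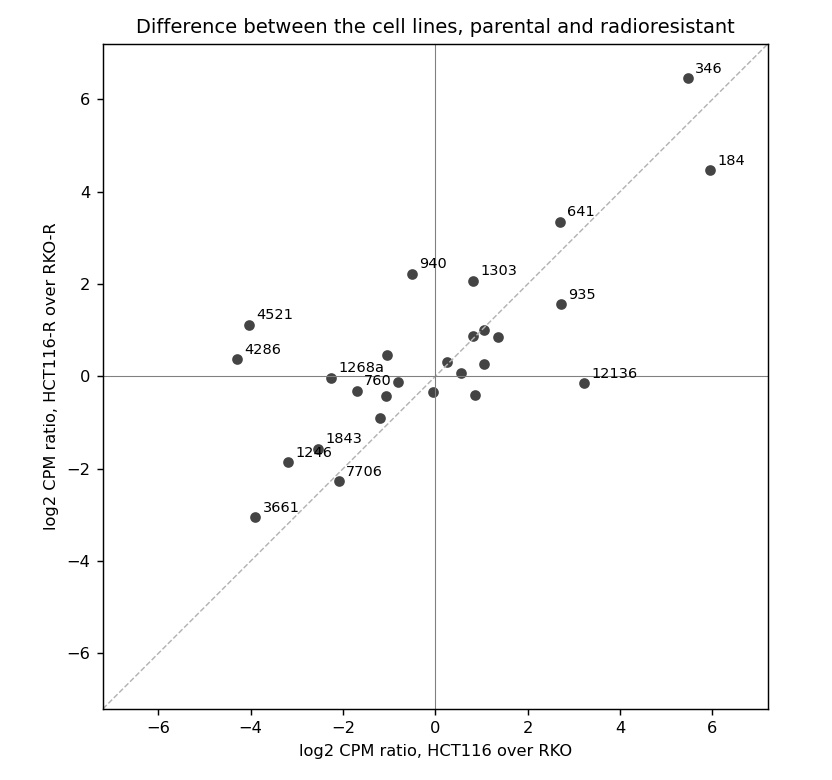
Log2 CPM ratio of HCT116 over RKO (horizontal) against HCT116-R over RKO-R (vertical) for the 27 single-product miRNAs with 100 or more counts in a parental library, with libraries under 3 counts set to that floor and the dashed line marking equal ratios. miR-346, miR-184, miR-641, miR-935, miR-3661 and miR-7706 keep their side, while miR-4521, miR-4286, miR-12136 and miR-1268a lie away from the line.

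Some members have a sequence that another RNA also holds. Each mature sequence was searched, base for base, in the 5722 annotated non-coding transcripts of GENCODE release 29 that are transfer RNA of mitochondria, ribosomal RNA, small nuclear, small nucleolar or Cajal body RNA and the like. A match was found for 3 of 98 members and for 4 of 535 other miRNAs with 10 or more counts. Nuclear transfer RNA genes were not searched. The whole of miR-12136 is bases 1 to 18 of MT-TS1, the mitochondrial serine transfer RNA of 69 bases, and the chromosome 1 hairpin of 71 bases begins with all 69 of them. In both lines below, and in the U2 line after them, capitals mark the letters of the mature miRNA:
MT-TS1: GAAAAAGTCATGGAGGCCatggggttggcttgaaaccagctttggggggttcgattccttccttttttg
MIR12136: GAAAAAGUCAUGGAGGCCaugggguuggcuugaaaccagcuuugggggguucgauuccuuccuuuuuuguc
RNU2-1: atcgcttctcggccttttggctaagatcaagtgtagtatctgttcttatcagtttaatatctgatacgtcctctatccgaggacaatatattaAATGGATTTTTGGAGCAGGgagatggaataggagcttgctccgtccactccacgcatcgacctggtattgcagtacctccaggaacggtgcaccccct

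Reads of miR-12136 from the hairpin on chromosome 1 and from the mitochondrial transfer RNA cannot be told apart by sequence. The same holds for miR-1246, whose 19 bases stand in 19 annotated U2 small nuclear RNA transcripts, in RNU2-1 at bases 94 to 112 of 191, and for miR-1843, which stands in the Cajal body RNA SCARNA3 at bases 82 to 101 of 143. miR-4485-3p, an arm-named miRNA that matches the mitochondrial ribosomal RNA MT-RNR2, had 3, 14, 1 and 3 counts, too few to set beside the rise of miR-12136 in RKO-R. Which of the sources gave these counts was not tested.

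A list of 10 members whose names are generally tied to fragments of other RNAs, drawn up by name and without miR-1843, held miR-12136, miR-1246, miR-1260a, miR-1260b, miR-1268a, miR-1268b, miR-1273c, miR-4286, miR-4454 and miR-663b. Its summed level was 148, 221, 146 and 302 CPM, higher in each derivative than in its parent. Without miR-12136 the other 9 summed to 42.4, 65.3, 135 and 128 CPM, so the rise of the sum in RKO-R rested on miR-12136. Of these 9, miR-1246, miR-1260a, miR-1260b and miR-663b had a higher CPM in RKO-R than in RKO, and the others a lower one. With 11 of the 109 members tested and 4.39% of the miRNAs with 10 or more counts called higher in the HCT116 pair, 3 of the 10 were upregulated (miR-1246, miR-4286 and miR-4454) and 0 downregulated by edgeR's exact test. In the RKO pair, where 3 of the 101 members tested were called higher and 7 lower, 2 were upregulated (miR-12136 and miR-1260a) and 2 downregulated (miR-4286 and miR-1268a). The list did not move in a single direction in RKO-R.

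The miR-548, long-known and miR-378 lists held no call in a pair. A further list, of the chromosome 19 cluster, held only miR-1283, which was called higher in RKO-R. The 8 members of the miR-548 family summed to 179, 205, 140 and 161 CPM, most of it miR-548k, and none was called in a pair. Of the 5 tested between the lines, miR-548n and miR-548v were called higher in the HCT116 libraries. The 5 long-known members miR-184, miR-326, miR-346, miR-421 and miR-449a summed to 593, 680, 1016 and 837 CPM, with no call in a pair. All 5 were tested between the lines, and miR-184 and miR-346 were called higher in the HCT116 libraries. Over all 590 miRNAs tested there, 23.2% were called higher. The 4 relatives of miR-378, miR-378c, miR-378d, miR-378e and miR-378g, summed to 4.40, 3.23, 9.80 and 6.94 CPM. None was called in a pair or for the difference between pairs, and of the 4 only 1 was tested, and not called, between the lines and for radioresistance.

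Shared seeds tie some members to more abundant miRNAs. Of the members, 14 shared all of bases 2 to 8 with another miRNA of 10 or more counts, over 11 seeds, and for 6 of them the relative was itself a member. The relatives of the most abundant such member are shown with the seed in capitals:
miR-449a: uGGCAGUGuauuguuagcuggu
miR-34a-5p: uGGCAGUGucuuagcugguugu
miR-449b-5p: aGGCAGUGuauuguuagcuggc

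miR-34a-5p, the p53-induced tumour suppressor miRNA with this seed, had 119070, 132334, 78386 and 56563 counts, against 2839, 3270, 6267 and 4476 of miR-449a. Neither was called in a pair, at log2 fold changes of 0.18 and -0.20 for miR-449a and of 0.13 and -0.19 for miR-34a-5p in the HCT116 and RKO pairs. miR-449b-5p, from the same cluster as miR-449a, had 8, 10, 70 and 41 counts. By parental level, miR-449a was 2.11-fold higher in RKO than in HCT116 and miR-34a-5p was higher in HCT116.

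Several members differ so little from another miRNA that the division of their counts is uncertain. The closest pairs are shown with the seed in capitals:
miR-1260a: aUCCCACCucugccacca
miR-1260b: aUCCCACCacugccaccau
miR-1268a: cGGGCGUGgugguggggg
miR-1268b: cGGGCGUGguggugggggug

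miR-1268a is contained in miR-1268b, and miR-1260a matches miR-1260b with 1 mismatch. miR-1268b had 2, 1, 34 and 6 counts and like miR-1268a was highest in RKO. miR-1260a had 1, 0, 1 and 15 counts. miR-3180 is contained in miR-3180-3p, and miR-378g differs by 1 base from the abundant miR-378a-3p, which had 65179, 53583, 68577 and 49250 counts against 2, 4, 21 and 8 of miR-378g. miR-378c, miR-4454, miR-548ab, miR-548n and miR-548u also had a neighbour within 1 mismatch. No member had counts identical to those of another miRNA in all 4 libraries.

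In all, 41 members were called in at least 1 comparison and 70 in none, against 37.0% of all miRNAs with 10 or more counts called in at least 1. The low-count filter kept 28 members out of the line and radioresistance comparisons. The 70 members called in no comparison held 13 with 100 or more counts in a library, namely miR-449a, miR-1275, miR-3615, miR-2110, miR-941, miR-548k, miR-421, miR-151b, miR-1303, miR-760, miR-3909, miR-2278 and miR-577. The other 57 had fewer, and for them only large changes could be resolved at this depth.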

How the data were processed

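Small RNA libraries of 18 to 30 bases with unique molecular identifiers were sequenced by the authors on BGISEQ-500, 1 library for each of HCT116, HCT116-R, RKO and RKO-R. The authors deposited raw counts per mature miRNA, and a miRNA absent from a table was given 0. The submitters' processing notes name Bowtie2 and hg38. The miRNA release, the use of strand and the collapse of identifiers are not given in the sources used here. Groups came from the sample labels. The members and all lists were chosen with earlier results of these data known.

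Counts were scaled to CPM by library totals, with 95% Wilson or exact counting intervals and a floor of 3 counts. Pairs were compared with the exact test of edgeR 4.0.16 (R 4.3.3) at the BCV of 0.2 that the study's methods name, with TMM. A quasi-likelihood fit of the 4 libraries, after edgeR's low-count filter, gave the lineage and radioresistance comparisons, and a likelihood ratio test the difference between pairs. All fits covered the whole table, with Benjamini-Hochberg adjustment. Standard errors follow from the counts and the assumed BCV. Alternatives were other BCVs, scalings, filters and tests, including DESeq2 1.42.0. The fits were tested on simulated data drawn at a BCV of 0.2. That cannot show how the calls hold at the BCV of 0.482 estimated over the 4 libraries.

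Members named were those given with the group's definition, the 12 most abundant, all called in a pair, those with the largest parental differences, list members of 100 or more counts, and those at the threshold. Members called between the lines or for the difference between pairs, and the seed and sequence relatives, were added after their values were seen. Sequences came from RefSeq GRCh38.p14 and gene positions from GENCODE release 29. Python 3.11.15 was used.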

Additional observations from a re-analysis of the deposited data

Results flagged for a closer look

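The change between parental and radioresistant library differed between the HCT116 and the RKO pair for 10 single-product miRNAs, by edgeR's likelihood ratio test of the difference at a BCV of 0.2. The differences in log2 fold change (HCT116 pair minus RKO pair) were 4.92 for miR-4521, 4.71 for miR-551a, 4.42 for miR-4517, 4.42 for miR-4286, 3.44 for miR-3662, 2.71 for miR-3176, 2.50 for miR-940, -3.59 for miR-12136 and -2.40 for miR-1260b. For miR-4706, with 1, 18, 4 and 0 counts in HCT116, HCT116-R, RKO and RKO-R, the fitted difference of 8.91 depends on the prior count and gives only a direction. This member was kept only through HCT116-R, where it is high, so that direction follows in part from the choice. The adjusted p-values of these edgeR tests ran from 2.67e-13 for miR-4521 to 0.0431 for miR-1260b. Over all 1474 miRNAs, 2.58% were called above 0 and 2.17% below 0. Every member has 10 or more counts in a library, so these shares are not a like background. At a BCV of 0.4 only miR-4521 stayed called. The call of miR-1260b was also lost with library totals in place of TMM. Each test rests on 1 library per line, and no explanation was tested.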

How the results depend on the processing

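The calls depend mainly on the assumed BCV, since no line had a replicate. With a BCV of 0.1 the members called numbered 21 in the HCT116 pair, 20 in the RKO pair and 26 for the difference between pairs, against 11, 10 and 10 at 0.2. With a BCV of 0.4 there was 1 in each, namely miR-4463, miR-12136 and miR-4521, of which miR-4463 had been kept as a member only through HCT116-R, where it is high. The BCV estimated over the 4 libraries was 0.482. Over all miRNAs, the HCT116 pair gave 53 calls (154 at 0.1, 24 at 0.4), the RKO pair 64 (148 and 9) and the difference 70 (178 and 14). Between the lines, 21 members were called, but 12 with library totals, 8 with DESeq2's Wald test and 49 with a BCV fixed at 0.2. For radioresistance over both lines, 0 became 9 with that BCV. The corresponding counts of all miRNAs between the lines were 174, 127, 111 and 347, and for radioresistance 4 and 43, or 11 with no filter on low counts. With a denominator that leaves out the 10 most abundant miRNAs, the members' shares were 0.681%, 0.814%, 1.04% and 0.737% in HCT116, HCT116-R, RKO and RKO-R, and without miR-4521 they were 0.303%, 0.289%, 0.290% and 0.253%. The alternatives for the difference between pairs were chosen after seeing the data. No call of a named member changed direction under any alternative run. No paired analysis was possible because the labels give no replicate numbers that groups share, with 1 library in each line, although the fit over both lines does block on cell line. Leaving a library out left no pair or no residual degree of freedom.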
